A study of Homo sapiens with 4 samples.

Results

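The genes described here encode CTCF and 9 factors that form or regulate cohesin, namely RAD21, SMC3 and STAG1 of the cohesin ring, the loaders NIPBL and MAU2, the release factors WAPL, PDS5A and PDS5B, and the acetyltransferase ESCO1. They are 10 of 19970 protein-coding genes of GENCODE release 44 (hg38) on chromosomes 1 to 22 and X, and were chosen by name. For each gene, SMC1 and CTCF peaks were taken whose summit lies in the gene body or within 50 kb of the gene start, and loops with an anchor within 5 kb of the start of any of its transcripts. HG00731 is a human lymphoblastoid cell line (LCL), that is, B cells immortalised with Epstein-Barr virus. It was fixed with FA and EGS (dual cross-linking) for SMC1 HiChIP and with FA alone for CTCF HiChIP, with 2 replicates for each target. The cells carried no treatment or genetic change. The targets differ in fixation, in antibody and in the number of reads the study reports, which is higher for SMC1. The effects of these cannot be told apart. The authors pooled the replicates before calling 1 peak list and 1 loop list per target, so no value below has a spread between replicates, and no test between the targets was made.

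HiChIP enriches ligated pairs of DNA fragments by immunoprecipitation, so that it gives peaks of the target and loops between distant sites. Cohesin is a ring that extrudes chromatin into loops, and CTCF is a zinc finger protein that halts it at a motif with a direction, most often where a pair of motifs point at each other. RAD21 and SMC3 close the ring and STAG1 binds it, NIPBL with MAU2 loads it, WAPL with PDS5A or PDS5B releases it, and ESCO1 acetylates SMC3, which protects the ring from release. The maps therefore show the genes of the loop machinery in the machinery's own data.

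The lists hold 96855 SMC1 and 62869 CTCF peaks, and 28012 loops labelled SMC1 and 80487 labelled CTCF. Loops labelled SMC1 rest on 788356 read pairs in all and those labelled CTCF on 2666327. The loop labels need care. The caller asks for a peak of the target at a loop anchor, yet 11 loops labelled SMC1 have no SMC1 peak at either anchor and 0 lack a CTCF peak, whereas 3745 loops labelled CTCF have no CTCF peak and 0 lack an SMC1 peak. Each list thus meets the requirement fully for the other target. The loop totals that the study gives for SMC1 and CTCF in this cell line are likewise the reverse of the labels, so the labels of these lists appear to be exchanged. At the 10 genes, 51 of 51 loops labelled SMC1 touch a peak of each target, and of 110 loops labelled CTCF all touch an SMC1 peak and 108 a CTCF peak. The lists are named below by their labels as deposited, and every statement on a list labelled SMC1 may therefore describe CTCF loops, and the reverse. Of the B cell genes MS4A1, CD79A, CD79B, PAX5 and CD74, 5 of 5 had an SMC1 peak and 3 a CTCF peak within 1 kb of a start, against 3 and 3 of 6 T cell genes (CD3D, CD3E, CD4, CD8A, LCK and GATA3). Over all protein-coding genes the shares are 59.1% for SMC1 and 41.9% for CTCF. So few genes cannot check the cell type.

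A CTCF motif of 19 positions was learned from CTCF summits outside the windows of these genes, with the consensus CCACNAGGGGGCGCNNNNN. Within 100 bp of the summit, 23 of 67 member CTCF peaks held a match of at least 10 bits (34.3%, Wilson 95% interval 24.1 to 46.3), near the 31.2% of all CTCF peaks and above the 8.85% of windows 1 kb away. Intervals here and below cover counting error only. The following reference sites lie under CTCF peaks of the windows, with the best match near the summit or, for a second site at STAG1 and for ESCO1, over the whole peak at the start. They are printed 5′ to 3′ on the strand of the motif, with the 19 positions in capitals and 5 bases on either side.
CTCF gene, 15 kb upstream, chr16:67547208-67547236, plus strand, 11.2 bits: agcttTCTGCAGAGGGGGCTGAAGgagct
SMC3, 10 kb upstream, chr10:110557191-110557219, plus strand, 16.2 bits: gtgcaCCACAAGGGGGCAGACGTCttagg
STAG1 start, near the summit, chr3:136752659-136752687, minus strand, 11.4 bits: ttccgCCAGCCGCGGGCGGCCCAAgaacc
STAG1 start, whole peak, chr3:136752395-136752423, minus strand, 19.4 bits: cgcggCCAGCAGAGGGCGGTCCGGaccca
STAG1 intron, chr3:136391794-136391822, plus strand, 18.2 bits: gaccaGCACTAGGGGGCACTGGAGcaaag
NIPBL intron, chr5:36944787-36944815, minus strand, 14.5 bits: atagtCCACAAGAGGGCACACTTTcaact
MAU2, beyond the gene end, chr19:19361217-19361245, minus strand, 14.6 bits: agtcgCCACAAGGGGGAAGCAACCcgaat
PDS5B, 5 kb upstream, chr13:32581366-32581394, minus strand, 17.2 bits: agcagCCAGCAGATGGAGCTATTGaaaaa
ESCO1 start, whole peak, chr18:21601014-21601042, minus strand, 17 bits: ggccgCCGCTAGGGGGCGCCGCCActtcc
Of these sites the whole-peak site at the STAG1 start, 252 bp from the summit, scored highest and that 15 kb upstream of the CTCF gene lowest. RefSeq promoter windows (GRCh38.p14, 250 bases before to 50 after the start) were given for 8 of the genes, not for RAD21 and ESCO1. Of these, 6 held a match of at least 10 bits on either strand, as did 41.8% of 21571 windows of protein-coding genes, and their median GC content was 73.3% against 62.3%.

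All 10 genes had an SMC1 peak within 1 kb of the start of a protein-coding transcript, against 59.1% of all protein-coding genes, and 8 had a CTCF peak there, against 41.9%. With the gene start only, 9 had an SMC1 peak and 8 a CTCF peak. A gene with more coding transcript starts can meet more peaks. The 10 windows held 116 SMC1 and 67 CTCF peaks. The -log10 q-value, the significance MACS3 gives a peak, had a median of 9.42 in the member SMC1 peaks and 13.7 in all SMC1 peaks, and of 23.1 in the member CTCF peaks and 19.6 in all CTCF peaks. Fold enrichment over the local background had a median of 2.96 against 3.32 for SMC1 and of 4.88 against 5.01 for CTCF. Of the member SMC1 peaks, 51 (44.0%, 35.3 to 53.0) overlapped a CTCF peak, beside 47.1% of all SMC1 peaks. Of the member CTCF peaks, 50 (74.6%, 63.1 to 83.5) overlapped an SMC1 peak, beside 75.9%. Both intervals include the value over all peaks. Over the summed gene bodies, SMC1 peaks numbered 5.34 per 100 kb at the 10 genes and 4.56 at all coding genes, and CTCF peaks 2.79 and 2.81.

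**Figure D1:**
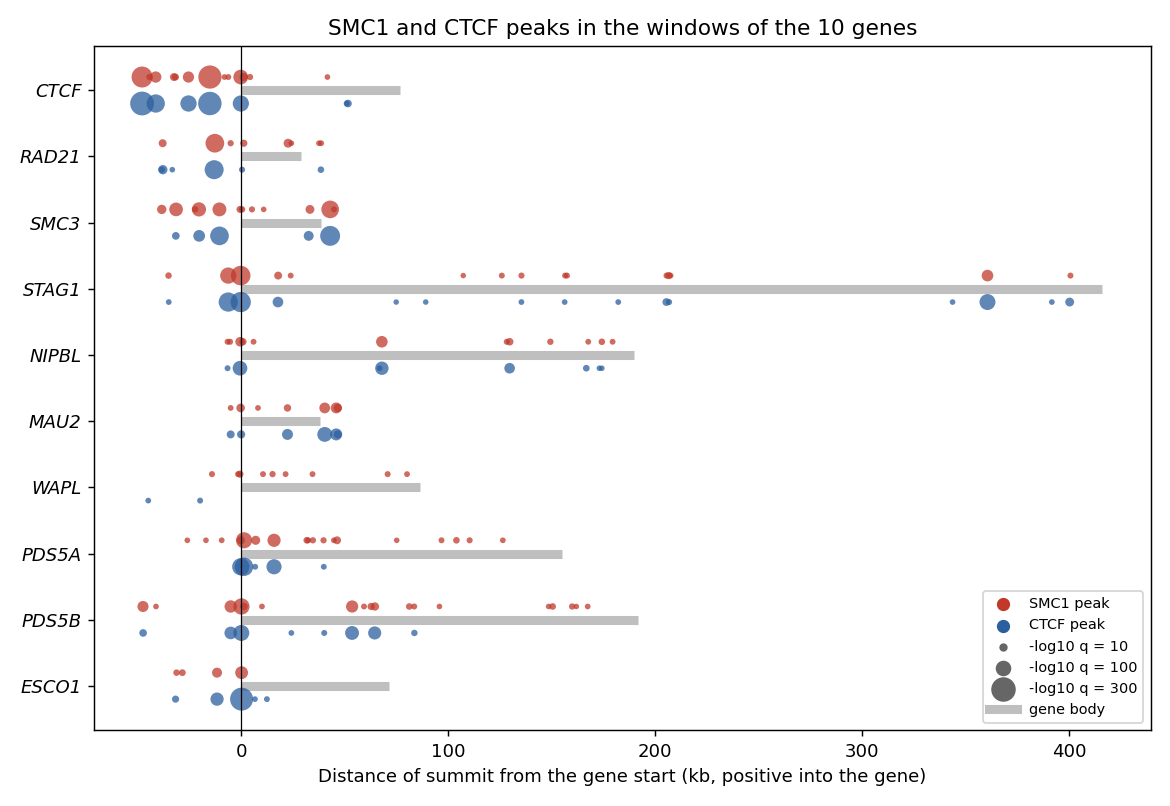
Summits of SMC1 (red) and CTCF (blue) peaks by distance from the gene start in kb, positive into the gene, with 1 row per gene and the gene body as a grey bar. Circle area grows with the -log10 q-value. The largest circles lie upstream of CTCF and RAD21, past the gene end of SMC3 and at the start of STAG1, with that of CTCF at the start of ESCO1, and WAPL has small circles throughout.

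CTCF, the zinc finger protein itself, lies at chr16:67562467-67639177 on the plus strand. Its start had an SMC1 peak with a -log10 q-value of 117 (fold enrichment 5.46) and a CTCF peak of 145 (8.82). These summits lie 246 and 191 bp upstream of the gene start, in an exon of the divergent noncoding gene CTCF-DT. Stronger peaks stood farther upstream. About 15 kb upstream, between genes, the SMC1 peak reached 314 and the CTCF peak 321, and near the far edge of the window they reached 254 and 332. The window of CTCF held 13 SMC1 and 7 CTCF peaks, of which 3 and 2 lie in the gene body. The other 5 CTCF peaks all lie upstream of the gene start.

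The ring subunit genes differed from each other. RAD21 (chr8:116845934-116874776, minus strand) is the kleisin that closes the ring. At its starts the SMC1 peak was near the middle of its list and the CTCF peak low. Their -log10 q-values were 16.1 (percentile 54.7) and 6.74 (percentile 23.8). The strongest peaks of RAD21 lie about 13 kb upstream, with 199 for SMC1 and 206 for CTCF. SMC3 (chr10:110567684-110606048, plus strand) had an SMC1 peak of 14.4 at its start and no CTCF peak there. The CTCF summit nearest to its coding start lies 10512 bp away with a -log10 q-value of 198, and the highest of its window, 227, lies 42952 bp downstream of the start, past the gene end. STAG1 (chr3:136336236-136752403, minus strand) is the longest of the 10 genes at 416 kb. Its start had the highest SMC1 value of the 10 starts, 218, together with a CTCF peak of 236, at percentiles 98.9 and 96.6 of their lists. A further pair of peaks 6261 bp upstream reached 146 and 211. Within STAG1, a CTCF peak of 140 stood in an intron 360601 bp from the start, over the intronic motif printed above.

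The loader genes had peaks of both targets at the start. NIPBL (chr5:36876769-37066413, plus strand) had an SMC1 peak of 40.8 and a CTCF peak of 116, 531 and 602 bp upstream, in an exon of the divergent NIPBL-DT. A pair of peaks in an intron, about 68 kb into the gene, reached 66.5 and 94.5. MAU2 (chr19:19320829-19358754, plus strand), the partner of NIPBL, starts 320 bp from the divergent coding gene SUGP1. Its start peaks were lower, at 29.1 and 24.8, and cannot be assigned to MAU2 or SUGP1. The highest CTCF peak of its window, 119, lies 40343 bp from the start, past the gene end.

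Among the release factors, WAPL (chr10:86435256-86521792, minus strand), which opens the ring, stood at the low end. Its 9 SMC1 peaks had a median -log10 q-value of 5.36 and a highest value of 15.7, at the start. Its 2 CTCF peaks had values of 4.38 and 6.07, the nearer 19869 bp from a coding start, and 0 of its peaks overlapped a peak of the other target. PDS5A (chr4:39822863-39977956, minus strand) had SMC1 and CTCF values of 25.8 and 169 at the start, and a second pair of 144 and 193 in a UTR exon about 1347 bp into the gene. PDS5B (chr13:32586452-32778019, plus strand) had 147 and 141 at the start, in a UTR exon, and 78.3 and 82.2 about 5 kb upstream, over the site printed above. The paralogs PDS5A and PDS5B each held 18 SMC1 peaks, with 5 and 8 CTCF peaks. ESCO1 (chr18:21529284-21600884, minus strand), the acetyltransferase, had the highest CTCF value of the 10 starts, 308 (fold enrichment 13.3, percentile 98.7), with an SMC1 peak of 84.7. No motif of at least 10 bits lay within 100 bp of either summit, and the 17-bit site printed above lies in the same CTCF peak, 306 bp from its summit.

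**Figure D2:**
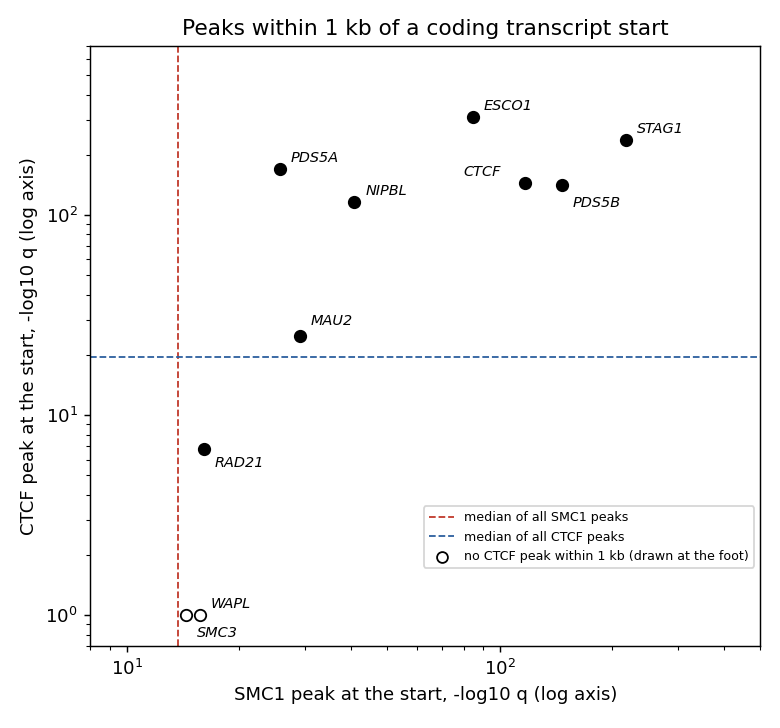
The -log10 q-value of the SMC1 peak (x, log axis) and the CTCF peak (y, log axis) at the start of each gene, with dashed lines at the medians of all SMC1 peaks (13.7) and all CTCF peaks (19.6). SMC3 and WAPL, drawn as open circles at the foot, had no CTCF peak within 1 kb, and RAD21 lies below the CTCF median.

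Of the 10 genes, 6 had a loop labelled SMC1, against 35.1% of all coding genes, and 9 a loop labelled CTCF, against 59.0%. The 10 genes have a median of 9.50 distinct transcript starts, where all coding genes have 5.00, and a gene with more starts can meet more anchors. There were 51 loops labelled SMC1 and 110 labelled CTCF. They were unevenly spread, since STAG1 and PDS5A together held 36 (70.6%) and 64 (58.2%). Of all 51 and 110 loops, 43 and 92 have an anchor within 5 kb of the first base of the gene. Of the loops labelled SMC1, 49 (96.1%, 86.8 to 98.9) were found in the list labelled CTCF with a tolerance of 15 kb, beside 91.5% at all coding genes. In the other direction 69 (62.7%, 53.4 to 71.2) were found, beside 56.1%. Member loops labelled SMC1 span a median of 295 kb and those labelled CTCF 205 kb, where the medians over loops at all coding genes are 120 and 115 kb. This difference rests on STAG1 and PDS5A, since without them the 15 and 46 loops left have medians of 85.0 and 110 kb, below those of all coding genes. Loops that share an anchor are not independent of each other, so these shares rest on fewer sites than loops.

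**Figure D3:**
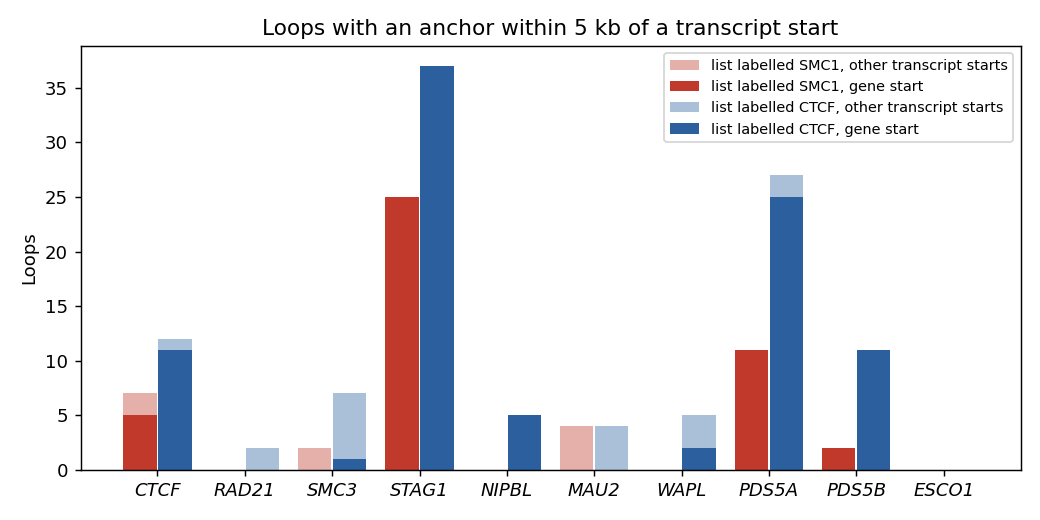
Number of loops per gene in the list labelled SMC1 (red) and the list labelled CTCF (blue), with loops at the gene start in full colour and loops at other transcript starts in pale colour. STAG1 has 25 and 37 loops, all at its gene start, the 4 MAU2 loops of each list lie at other transcript starts, and ESCO1 has 0.

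STAG1 carried 25 loops labelled SMC1 and 37 labelled CTCF, more than 99.4% and 99.5% of coding genes. The loop with the most read pairs in the list labelled CTCF joins the bin chr3:136755001-136760000, which holds the peaks 6261 bp upstream, to a bin 260 kb upstream of the gene. It had 255 read pairs where 12.4 were expected, a ratio of 20.5 (exact Poisson 95% interval 18.1 to 23.2). In the list labelled SMC1 the top loop runs from the neighbouring bin at the start to the same far bin, with 62 read pairs and a ratio of 5.36 (4.11 to 6.87). These are different pairs of bins. The pair with 255 read pairs had 60 and a ratio of 8.70 (6.64 to 11.2) in the list labelled SMC1. The pair with 62 had 213 and a ratio of 9.46 (8.23 to 10.8) in the list labelled CTCF. In the opposite direction, the start met the intronic site 360 kb into the gene, with 81 read pairs and a ratio of 9.53 by the list labelled CTCF and 28 and 4.82 by the other. Loops to a bin 675 kb from the start had 71 and 39 read pairs. The coding genes at the far anchors were MSL2, a subunit of a histone acetyltransferase complex, and PCCB, a subunit of propionyl-CoA carboxylase. STAG1 loops thus run from its start both outward and through its own body.

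The loops of CTCF were short. The top loop labelled CTCF joins the start to the bin of the site 15 kb upstream, with 192 read pairs and a ratio of 2.18 (1.88 to 2.51). The top loop labelled SMC1 joins the start to a bin 80 kb downstream, at a transcript start of CARMIL2, with 57 read pairs and a ratio of 3.83 (2.90 to 4.96). The same pair of bins had 104 read pairs and a ratio of 5.34 (4.36 to 6.47) in the list labelled CTCF. Of its loops, 6 of 7 labelled SMC1 and 9 of 12 labelled CTCF have a transcript start of another coding gene at the far anchor. This need not be the first base of that gene. CARMIL2 and RIPOR1 occur in both lists. A further 2 labelled CTCF have both anchors at transcript starts of CTCF itself. With those, 6 of 7 and 11 of 12 join 2 starts, beside 32.9% and 27.7% over loops at all coding genes. The loops of CTCF reach only 4 and 7 distinct far bins. SMC3 had 2 and 7 loops, and 1 of these 9 lies at its gene start. The top loop of each list joins the 3′ part of SMC3 to a region about 260 kb upstream, with 14 read pairs (ratio 5.29) and 31 (7.63). A transcript start of SMNDC1, a splicing factor, lies at that region. RAD21 had 2 loops, both labelled CTCF, from internal transcript starts to the strong site upstream, with 43 and 28 read pairs and ratios of 2.53 and 2.92.

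NIPBL and WAPL each had 5 loops, all labelled CTCF and 0 of them found in the other list. The top NIPBL loop joins its start to the intronic site 66 kb into the gene, with 31 read pairs and a ratio of 3.66 (2.49 to 5.20). The top WAPL loop had 20 read pairs and a ratio of 2.26 (1.38 to 3.49), and 2 of its 5 loops lie at the gene start. MAU2 had 4 loops in each list, none at its gene start. All 8 join bins at its 3′ end or just past it to a pair of bins 167 and 172 kb from the gene start. The top loops, of the same pair of bins, had 38 read pairs (ratio 4.79) and 50 (7.97). They start from the bin past the gene end that holds its highest CTCF peak.

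PDS5A had 11 and 27 loops. In the list labelled CTCF, 9 have both anchors at transcript starts of PDS5A itself, and the top loop by read pairs spans 10 kb inside the gene (59 read pairs, ratio 2.02). The top loop labelled SMC1 reaches 285 kb through the gene and past its end, with 27 read pairs and a ratio of 5.04 (3.32 to 7.33). The same pair of bins had 30 read pairs and a ratio of 8.97 (6.06 to 12.8) in the list labelled CTCF. The start of UBE2K, a ubiquitin-conjugating enzyme, lies at a far anchor in both lists, as does that of UGDH, and SMIM14 and LIAS only in the list labelled SMC1. PDS5B had 2 and 11 loops. The top loop of both lists joins its start to the same bin 61 kb into the gene, with 23 read pairs (ratio 4.46) and 50 (4.92). The longest, labelled CTCF, spans 955 kb with 32 read pairs and a ratio of 7.54. A transcript start of KL, which encodes klotho, is the coding start met by a PDS5B loop.

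ESCO1 had 0 loops in either list in spite of its start peaks. No loop of either list had an anchor in its body or within 50 kb of its start, and 1 loop labelled SMC1 and 3 labelled CTCF span the whole gene.

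**Figure D4:**
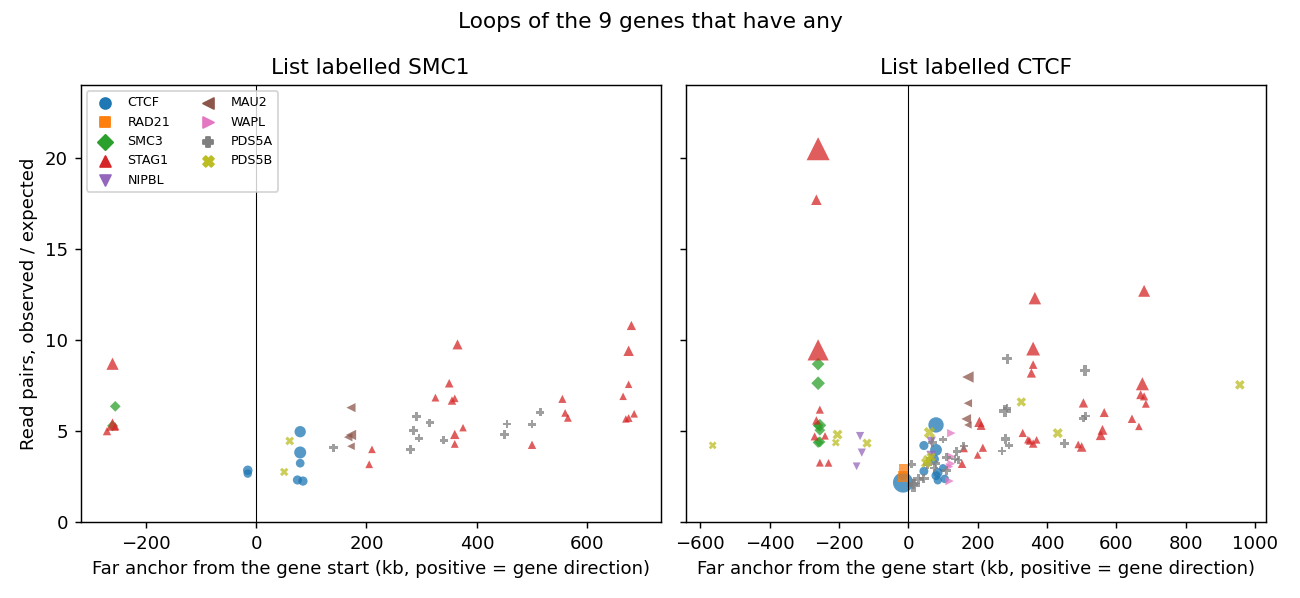
Ratio of observed to expected read pairs (y) by distance of the far anchor from the gene start in kb (x, positive in the direction of the gene), for loops labelled SMC1 (left) and CTCF (right), with a marker per gene and marker area growing with read pairs. STAG1 holds the ratios above 10, up to 20.5 for the loop 260 kb upstream, and the far anchors of RAD21 lie close to its start.

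Across the 10 genes, 14 of 51 loops labelled SMC1 (27.5%, 17.1 to 40.9) and 30 of 110 labelled CTCF (27.3%, 19.8 to 36.3) have a coding start, of the same or another gene, within 1 kb of the other anchor. The shares over loops at all coding genes are 32.9% and 27.7%. A motif of at least 10 bits, taken over whole CTCF peaks at the anchor, lay at both anchors of 17 and 33 member loops. Whole peaks can be wider than the windows at summits, and no control share was computed for them. The sites used at the starts of STAG1, NIPBL and CTCF lie 252, 198 and 178 bp from the CTCF summit. Convergent pairs made up 10 of 17 (58.8%, 36.0 to 78.4) and 24 of 33 (72.7%, 55.8 to 84.9), beside 60.0% and 61.8%. Of the 24, 10 belong to PDS5B, where all 10 loops with a motif at both anchors were convergent, and 7 to STAG1. The PDS5B loops share near anchors, so they are not 10 independent pairs. At the PDS5B start the orientation rests on a plus-strand site of 15.3 bits, 117 bp from the CTCF summit. A weaker match of 10.4 bits in the same peak, 85 bp from the summit, lies on the minus strand. The 2 loops of CTCF labelled SMC1 with a motif at both anchors had both motifs on the minus strand.

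Of 26 related genes listed by role, 23 had an SMC1 peak at a start, 13 a CTCF peak, 10 a loop labelled SMC1 and 17 a loop labelled CTCF. The shares over all protein-coding genes are, in the same order, 59.1%, 41.9%, 35.1% and 59.0%. SMC1A, the target of the SMC1 immunoprecipitation, the meiotic RAD21L1 and the CTCF paralog CTCFL had no peak of either target at a start. Of these 26, the most loops over both lists were at ESPL1 (10 and 16), the separase that cleaves cohesin, NCAPG (3 and 15), a condensin subunit, and STAG3 (5 and 12), a meiotic cohesin subunit. All 8 condensin genes had an SMC1 peak at a start and 4 a CTCF peak, beside the 59.1% and 41.9% of all protein-coding genes. STAG2, the paralog of STAG1, had 0 loops labelled SMC1 and 13 labelled CTCF.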

How the data were processed

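SMC1 and CTCF HiChIP of HG00731 was analysed from 1 peak list and 1 loop list per target, each pooled from 2 replicates by the authors. Samples were grouped by the target in their labels. Reads were aligned to hg38 with BWA-MEM, and duplicates removed. Peaks were called with MACS3 3.0.1 without an input, and loops with MAPS in 5 kb bins. The deposited fold enrichment is a ratio of the summit signal to the local background, and the authors deposited significance as the -log10 q-value. For loops the deposited count is the raw number of read pairs, beside the number that the authors' regression expects. The lists give no read depth for a replicate, so their numbers of peaks and read pairs set the precision. The study reports more reads for SMC1 than for CTCF, so numbers of the targets side by side also differ in depth.

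Summits, anchors and transcript starts were compared with GENCODE release 44. The ratio for a loop is its count over the expected number. Its interval is exact Poisson, and shares carry Wilson intervals, both at 95%. The loops had already been selected by the caller, which these intervals do not take into account. At the 10 genes the fewest read pairs of a loop were 12 and the lowest ratio 2.02. A loop with the most read pairs can have a low ratio, as at CTCF, WAPL and PDS5A. The motif was learned from 3000 CTCF peaks with the highest -log10 q-value outside the gene windows, using 50 bp on either side, and the method was tested on simulated data. For orientation, the match with most bits in CTCF peaks at an anchor was taken over the whole peak. All 10 genes are named, each with its peak of highest -log10 q-value at the start (or the nearest) and in the window, its loop with most read pairs per list, and coding genes at far anchors. Further peaks and loops named, and the features picked out in the text, were chosen after their values were seen. Of the related genes, those without a start peak and the 3 with most loops are named, and others after their values were seen. Of the gene lists, 1 related gene and 1 B cell gene are not reported here. The members and lists were chosen with earlier results of these data known. Alternatives were stricter q-values, other windows, overlaps, tolerances and motif minimums. Python 3.11.15, NumPy 2.4.6, pandas 2.3.3, SciPy 1.17.1, pysam 0.24.0 and Matplotlib 3.10.9 were used.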

Additional observations from a re-analysis of the deposited data

How the results depend on the processing

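At -log10 q-values of 10 or more, 54 SMC1 and 41 CTCF peaks were left in the windows, and with gene bodies only 69 and 36. The share of SMC1 peaks that overlap a CTCF peak became 29.3% with summits within 100 bp, 29.3% with a reciprocal overlap of 50%, and 66.7% with the stricter q-value in both lists. Loops with at least the median read pairs of their list numbered 20 (labelled SMC1) and 55 (labelled CTCF). Without tolerance, 76.5% and 35.5% were found in the other list. With the start inside the far anchor, 15.7% and 18.2% joined 2 starts. CTCF peaks with a motif numbered 35 at 7 bits, 13 at 13 bits and 35 over the whole peak, and convergent loops labelled SMC1 numbered 6 at 13 bits. The numbers of genes with a peak at the start stayed within 1.5 times under each alternative, and 7 kept a CTCF peak at the stricter q-value. With the loop labels swapped, chosen after seeing the data and in the direction that the study's own loop totals give, 100% of member loops have a peak of their target at an anchor. With the labels as deposited the values are 100% (SMC1) and 98.2% (CTCF), so at these genes this check hardly tells the labellings apart. The median spans without STAG1 and PDS5A, given above, were also added after seeing the data. No paired analysis was possible because the lists pool both replicates, and for the same reason no replicate could be left out. Absence of a loop or peak means that none was called at this depth.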
